A study of Mus musculus with 7 samples.

Results

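The genes described here encode the enzymes, regulators, carriers and receptors of ceramide and sphingolipid metabolism. They were chosen by symbol from a list of 40 genes. Of these, 38 had counts in the deposited table of 14889 genes and all 38 passed the filter on low counts, so that 13693 genes including these 38 were tested. For the other 2, Sptlc3 and Enpp7, expression was not analysed here. The genes were grouped by step into de novo ceramide synthesis, sphingomyelin, glycosphingolipids, ceramide transfer and phosphorylation, ceramidases and sphingosine 1-phosphate (S1P).

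Liver RNA was sequenced from 3 ApoE-/- mice given PX-478 and 4 ApoE-/- mice given saline. PX-478, the N-oxide of the alkylating drug melphalan and an inhibitor of the oxygen-regulated factor HIF-1α, was injected intraperitoneally at 40 mg/kg, and saline was given the same way, on a schedule the labels call bi-weekly. Mice of both groups were of the C57BL/6 strain, were 4 months old and ate Western diet for 3 months. All of them lack apolipoprotein E, the ligand for clearance of remnant lipoproteins, in every tissue, so no mouse with normal lipoprotein clearance and none on another diet was compared.

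Ceramide is the hub of sphingolipid metabolism. It is built in the endoplasmic reticulum from serine and palmitoyl-CoA, first by serine palmitoyltransferase (SPT), which the ORMDL proteins hold back when ceramide is plentiful, and then by a reductase, ceramide synthases and a desaturase. It is carried to the Golgi and made into sphingomyelin or glucosylceramide, or it is cut by ceramidases to sphingosine, which kinases turn into the signalling lipid S1P. The liver makes ceramides and sphingomyelin for secreted lipoproteins, and hepatic ceramide is known for opposing insulin signalling.

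No gene of this pathway differed between the groups past the threshold. Of the 38 genes, 0 had an adjusted p under 0.05 in edgeR's quasi-likelihood test (Benjamini-Hochberg adjustment across the 13693 genes), where 0.00730% of all genes, the single gene Cfd, did. DESeq2 called 0 of the 38 at that threshold, where it called 0.562% of all genes, and limma-voom called 0 of the 38 and none of all genes. The smallest adjusted p among them was 0.602 in edgeR. At an unadjusted p under 0.05 there were 2 of 38, or 5.26%, against 6.97% of all genes, and DESeq2 and limma-voom gave 2 and 1 of the 38, against 7.46% and 7.77% of all genes. Both edgeR genes, Ormdl3 and Cers6, had lower values in PX-478, a direction in which 3.48% of all genes passed that threshold. PX-478 and saline libraries did not overlap for 1 of 38, or 2.63%, against 8.59% of all genes. That gene, Ormdl3, was lower in PX-478, as 4.29% of all genes were without overlap, and 0 of the 38 were higher without overlap, against 4.30% of all genes. Both shares were below those of all genes, and both counts moved with single libraries. Without PX-478 replicate 1, 2 or 3 the unadjusted count was 0, 4 and 4, and without saline replicate 3 or 4 it was 5 and 1. The count without overlap was 3, 6 and 6 without PX-478 replicate 1, 2 or 3, and 3, 5 and 5 without saline replicate 1, 2 or 3. Groups of fewer libraries separate more easily for any gene. The shares of all genes in these settings were not counted, so these counts cannot be read as a trait of the 38. Of the 38 log2 fold changes (PX-478 over saline), 15 were above 0 and 23 below, where 49.7% of all genes were above 0. Their median was -0.07, beside -0.00 over all genes. With scaling by total counts 25 were above 0 and 13 below, and the median was 0.06, beside 0.145 over all genes. For 23 of the 38 the 95% interval of the log2 fold change lay between -1 and 1, or 60.5%, as it did for 55.3% of all genes.

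**Figure D1:**
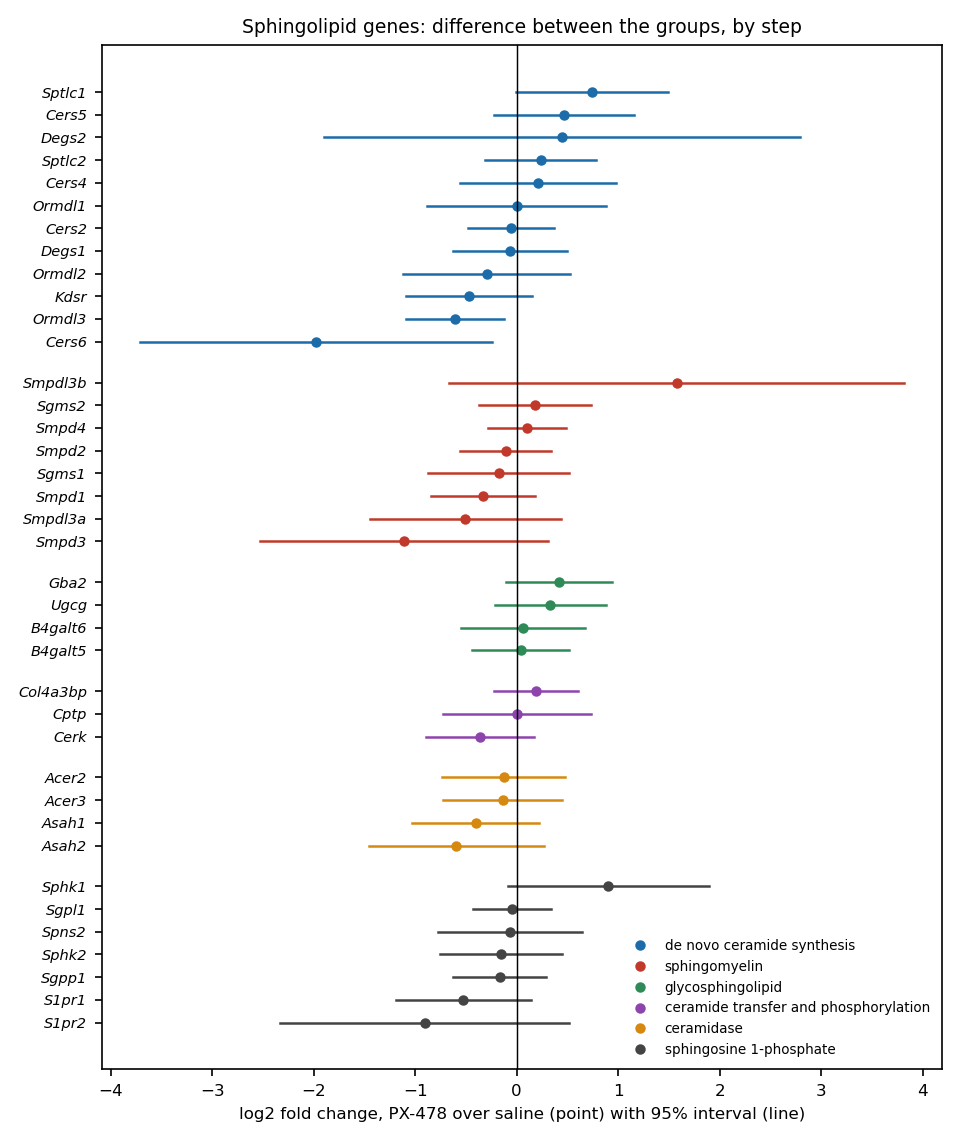
Points give the log2 fold change (x axis, PX-478 over saline) of each of the 38 sphingolipid genes and lines its 95% interval from edgeR, grouped and coloured by step. The intervals of Ormdl3 and Cers6 lie below 0, and those of all other genes plotted include 0.

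Each library held 10285776 to 17257304 counted reads. Levels are given as CPM, read counts relative to library size after scaling by the trimmed mean of M-values (TMM). A count of 3 reads equalled 0.188 to 0.260 CPM. Mitochondrially encoded genes took 22.4% of the reads in PX-478 replicate 2 and 27.1% to 36.7% in the other 6 libraries, and the TMM factor was 1.29 in PX-478 replicate 2 and 0.888 to 1.05 in the others. Hepatocyte markers summed to 30269 to 37901 CPM in PX-478 and 33967 to 50102 CPM in saline over 6 genes, and none of these markers was at 0 in any library. Sums over 8 sinusoidal endothelial markers were 285 to 363 CPM in PX-478 and 238 to 307 CPM in saline. Those over 8 stellate cell markers were 172 to 366 CPM in PX-478 and 201 to 239 CPM in saline. Of cholangiocyte markers 5 were tested (78.6 to 132 CPM in PX-478, 74.9 to 109.7 CPM in saline), and of lymphocyte markers 3 (10.1 to 17.5 CPM in PX-478, 13.2 to 21.2 CPM in saline). In the cholangiocyte sum Spp1 alone stood at 66.4 to 112 CPM in PX-478 and 62.8 to 86.5 CPM in saline. Of 5 enterocyte markers listed, only 2, Fabp2 and Apoa4, were among the genes with counts (66.3 to 227 CPM in PX-478, 184 to 378 CPM in saline). Apoa4 alone stood at 42.9 to 193 CPM in PX-478 and 148 to 346 CPM in saline. Of adipocyte markers 1 was tested, Cidec (2.22 to 14.0 CPM in PX-478, 1.85 to 8.27 CPM in saline).

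De novo synthesis held both genes with an unadjusted p under 0.05, Ormdl3 and Cers6, and the gene next to them by p, Sptlc1. The bases upstream of their starts are shown because these 3 genes carry what differed most in the pathway. Another reason is that PX-478 is used against HIF-1α, whose binding element has the core ACGTG or GCGTG. The search covered ACGTG alone. Sequences are from RefSeq (GRCm38.p6, which shares its coordinates with mm10), 5′ to 3′ on the gene's strand, 250 bases ending just before the start. They span chr11:98587246-98587495 on the minus strand for Ormdl3, chr2:68861191-68861440 on the plus strand for Cers6 and chr13:53377362-53377611 on the minus strand for Sptlc1. Capitals mark ACGTG on either strand.

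Ormdl3: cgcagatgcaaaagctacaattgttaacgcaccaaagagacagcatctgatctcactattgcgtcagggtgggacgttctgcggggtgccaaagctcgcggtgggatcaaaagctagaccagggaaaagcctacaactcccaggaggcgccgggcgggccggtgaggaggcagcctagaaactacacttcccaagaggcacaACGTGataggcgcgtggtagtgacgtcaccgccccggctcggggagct

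Cers6: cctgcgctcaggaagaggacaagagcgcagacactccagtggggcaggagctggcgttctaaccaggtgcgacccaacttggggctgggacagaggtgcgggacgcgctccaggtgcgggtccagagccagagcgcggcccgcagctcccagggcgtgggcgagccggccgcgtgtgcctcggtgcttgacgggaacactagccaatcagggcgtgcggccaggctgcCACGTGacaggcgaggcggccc

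Sptlc1: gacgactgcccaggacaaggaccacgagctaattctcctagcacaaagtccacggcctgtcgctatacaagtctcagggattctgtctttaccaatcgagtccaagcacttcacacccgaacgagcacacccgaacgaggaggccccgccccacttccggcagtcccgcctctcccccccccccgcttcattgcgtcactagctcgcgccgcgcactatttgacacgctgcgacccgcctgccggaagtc

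The Ormdl3 window holds ACGTG once, from 48 to 44 bases before the start. The Cers6 window holds the palindrome CACGTG, the E-box, which contains ACGTG on each strand, from 22 to 17 bases before the start. In the Sptlc1 window ACGTG does not occur. The other form of the core, GCGTG, was not searched, but each of the printed windows holds it on 1 strand or the other. The windows are therefore not told apart by the HIF core as a whole. Of the 40 listed genes, 35 had RefSeq windows, Sptlc3 and Enpp7 included, 50 in all because some have several starts. Of these 50 windows, some of which overlap, 14 (28%) held ACGTG on either strand and 7 (14%) held CACGTG, against 16.6% and 6.02% of all 32851 RefSeq windows of that length. A match is a description of letters and not of binding.

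Ormdl3 (Entrez Gene 66612, chromosome 11 from 98581294 to 98587245, mm10) encodes an ORMDL protein, an inhibitory subunit of SPT. It had 20.8, 41.3 and 30.7 CPM in the PX-478 libraries, against 47.1, 50.0, 46.1 and 45.2 CPM in the saline libraries. All 3 PX-478 libraries lay below all 4 saline libraries, and the saline libraries were close together while the PX-478 libraries were spread out, with coefficients of variation of 33.2% in PX-478 and 4.35% in saline. The means were 30.9 ± 10.3 CPM in PX-478 (SD, n = 3) and 47.1 ± 2.05 CPM in saline (SD, n = 4). On the log2 scale PX-478 was lower at -0.61 (SE 0.22, 95% interval -1.09 to -0.13, unadjusted p = 0.0177 and adjusted p = 0.602 in edgeR). Without PX-478 replicate 1, the lowest library, it was -0.39 with an unadjusted p of 0.0923, and with scaling by total counts it was -0.43 (unadjusted p = 0.155) and the groups overlapped. That scaling moved the median log2 fold change of all genes to 0.145, so that Ormdl3 lay 0.57 below that median on the log2 scale, beside 0.605 below it with TMM. The related Ormdl1 and Ormdl2 stood much lower, and their groups overlapped. Ormdl2 had 4.04, 2.27 and 3.00 CPM in PX-478, against 2.80, 5.03, 4.03 and 3.45 CPM in saline, and Ormdl1 had 2.65, 3.40 and 2.48 CPM in PX-478, against 2.02, 2.95, 4.03 and 2.38 CPM in saline. Their log2 fold changes were -0.30 for Ormdl2 (95% interval -1.12 to 0.53) and -0.00 for Ormdl1 (95% interval -0.89 to 0.88), and both intervals include the value of Ormdl3. Whether the family members differ from each other in response was not tested. Of the exon bases of Ormdl2, 66.7% overlap Dnajc14 on the opposite strand. The strand setting is not given, and how this overlap affected the Ormdl2 count was not tested. Per kilobase of exons, with the Ormdl2 count taken as it stands, Ormdl3 made up 84.0% ± 7.15 of the level of the 3 genes in PX-478 and 88.2% ± 2.26 in saline.

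The catalytic core of SPT is a dimer of SPTLC1 with SPTLC2 or SPTLC3. Sptlc1 had 7.66, 6.73 and 3.85 CPM in PX-478, against 3.52, 4.68, 2.84 and 3.51 CPM in saline. PX-478 replicates 1 and 2 stood above every saline library, and replicate 3 stood within their range. Means were 6.08 ± 1.99 CPM in PX-478 (SD, n = 3) and 3.64 ± 0.765 CPM in saline (SD, n = 4), with a log2 fold change of 0.74 (SE 0.35, 95% interval -0.01 to 1.49, unadjusted p = 0.0522). Without PX-478 replicate 3 that value was 0.99 with an unadjusted p of 0.0166, without saline replicate 2 it was 0.88 with an unadjusted p of 0.0388, and with scaling by total counts it was 0.91 with an unadjusted p of 0.0430. Leaving out the library that lies within the other group widens a difference by itself. Over all single libraries left out, the value for Sptlc1 ran from 0.54 to 0.99. Its partner Sptlc2 had 10.2, 11.0 and 15.5 CPM in PX-478, against 10.6, 8.15, 9.65 and 13.3 CPM in saline, with groups that overlapped and a log2 fold change of 0.24 (95% interval -0.31 to 0.78). Per kilobase the subunits stood at 1.71 and 1.51 CPM in PX-478 for Sptlc1 and Sptlc2, and at 1.02 and 1.28 CPM in saline.

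**Figure D2:**
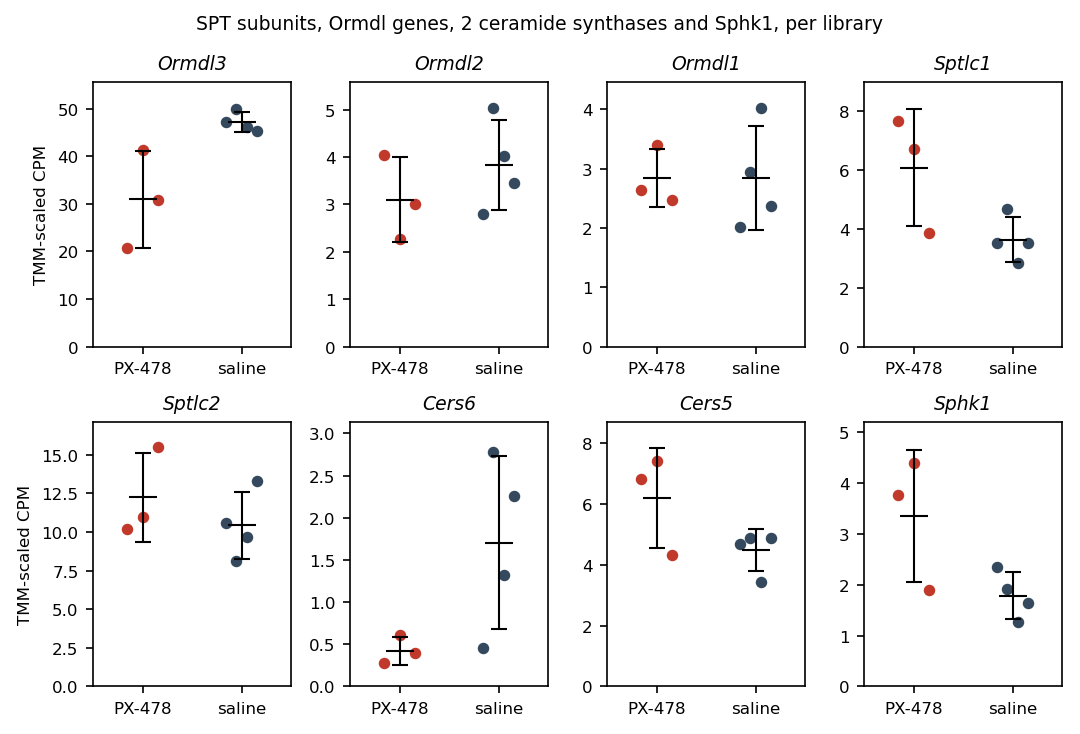
TMM-scaled CPM of the SPT subunits, the Ormdl genes, Cers6, Cers5 and Sphk1 in each library (points; PX-478 left, saline right), with mean ± SD (bars). All 3 PX-478 points of Ormdl3 lie below its 4 saline points, whereas the groups overlap in the other 7 panels; for Sptlc1, Cers5 and Sphk1 it is PX-478 replicate 3 that lies within the saline range.

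Ceramide synthases attach the second acyl chain, and each prefers its own chain length. Cers2, the synthase of very long chain ceramides and the main one of hepatocytes, was the most abundant gene of the pathway per length. It stood at 269, 268 and 273 CPM in PX-478, against 273, 284, 220.1 and 347 CPM in saline, and the PX-478 libraries lay within the saline range. Its log2 fold change was -0.06 (SE 0.20), with a 95% interval from -0.48 to 0.36. Per kilobase Cers2 made up 96.8% ± 0.963 of the level of the 4 synthases in PX-478 and 97.5% ± 0.357 in saline.

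Cers6, which makes long-chain ceramides, was the least abundant of the 4 synthases per length. It had 0.279, 0.605 and 0.392 CPM in PX-478, against 0.456, 2.78, 1.32 and 2.26 CPM in saline. In reads these were 4, 8 and 6 in PX-478 and 7, 32, 20 and 36 in saline. Saline replicate 1 lay among the PX-478 libraries and the other 3 saline libraries lay above all of them. Its log2 fold change of -1.98 had an SE of 0.80 and a 95% interval from -3.71 to -0.25 (unadjusted p = 0.0285, adjusted p = 0.662 in edgeR). With single libraries left out it ran from -2.31 to -1.65, and the unadjusted p was 0.0857, 0.0650, 0.0825 and 0.0692 without PX-478 replicate 1, PX-478 replicate 3, saline replicate 2 or saline replicate 4. In limma-voom it was -1.66 with an unadjusted p of 0.126. Cers5, the other long-chain synthase of the list, had 6.83, 7.41 and 4.31 CPM in PX-478, against 4.69, 4.86, 3.44 and 4.89 CPM in saline (log2 fold change 0.47, 95% interval -0.22 to 1.15). Cers4 ran from 4.11 to 10.7 CPM in PX-478 and from 4.17 to 7.89 CPM in saline.

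The remaining enzymes of de novo synthesis overlapped between the groups. Kdsr, the reductase after SPT, had 13.2, 10.9 and 11.7 CPM in PX-478, against 22.0, 21.7, 11.4 and 11.3 CPM in saline. Saline replicates 1 and 2 stood above every PX-478 library, and saline replicates 3 and 4 stood among them (log2 fold change -0.47, 95% interval -1.09 to 0.15; without saline replicate 3, -0.61 with an unadjusted p of 0.0419). Over all single libraries left out, the log2 fold change of Kdsr ran from -0.62 to -0.30, and its unadjusted p was under 0.05 in 1 of 18 alternatives. Degs1, the desaturase that turns dihydroceramide into ceramide, ran from 10.8 to 18.4 CPM in PX-478 and from 11.4 to 20.3 CPM in saline. Degs2, which also hydroxylates, had 2, 8 and 20 reads in PX-478 and 15, 6, 0 and 8 reads in saline. The 0 in saline replicate 3 allows up to 0.198 CPM. Of the 12 genes tested in this step, 5 had a log2 fold change above 0 and 7 below, with a median of -0.03. With scaling by total counts 8 were above 0 and 4 below, with a median of 0.144, beside 0.145 over all genes. Without saline replicate 4 there were 7 above and 5 below.

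**Figure D3:**
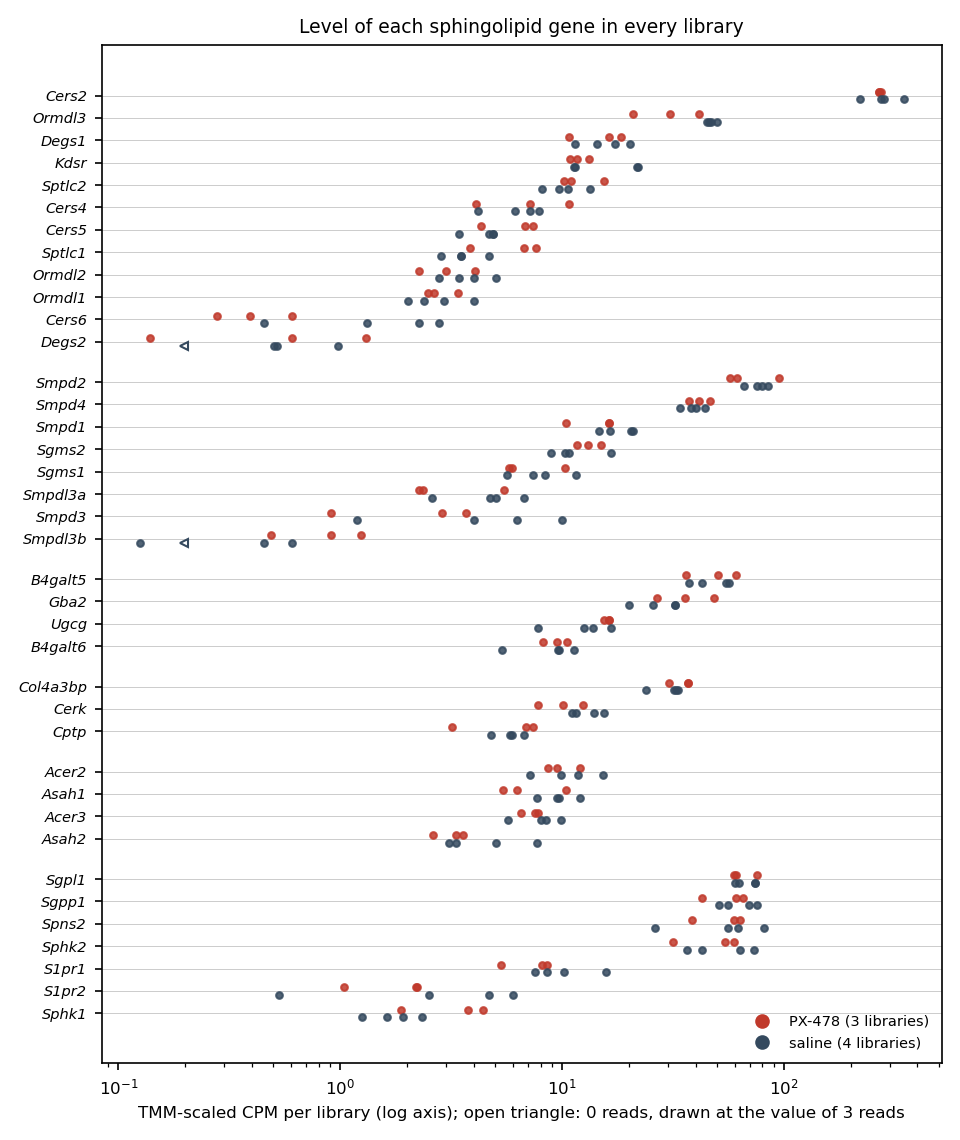
TMM-scaled CPM of each of the 38 genes in every library on a log axis (PX-478 above saline within each gene), grouped by step; open triangles are libraries with 0 reads, drawn at the value of 3 reads. Cers2 is the highest at 220.1 to 347 CPM, and the groups overlap for every gene other than Ormdl3.

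No sphingomyelin gene had an unadjusted p under 0.05. Sphingomyelin is made from ceramide by SGMS1 in the Golgi and by SGMS2 at the plasma membrane. Sgms2 had 13.1, 15.0 and 11.7 CPM in PX-478, against 16.7, 10.8, 8.92 and 10.3 CPM in saline, and Sgms1 had 5.92, 10.3 and 5.74 CPM in PX-478, against 11.6, 5.64, 8.39 and 7.39 CPM in saline. Both overlapped, at log2 fold changes of 0.18 (95% interval -0.37 to 0.73) and -0.18 (95% interval -0.88 to 0.52). Per kilobase Sgms2 made up 71.1% to 78.9% of their joint level in PX-478 and 64.3% to 76.5% in saline.

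Sphingomyelinases take sphingomyelin back to ceramide. Smpd2, a neutral sphingomyelinase, was the highest of the 4 Smpd genes per length, with 57.3, 61.3 and 94.6 CPM in PX-478, against 85.1, 66.3, 75.3 and 79.6 CPM in saline. Replicates 1 and 2 of PX-478 lay below all saline libraries and replicate 3 above them all, so the log2 fold change was near 0, at -0.11 (95% interval -0.56 to 0.34). Of its exon bases, 20.3% overlap Mical1 on the opposite strand, whose level was 8.53 ± 2.25 CPM in PX-478 and 10.2 ± 0.701 CPM in saline. Smpd1, the lysosomal acid sphingomyelinase, had 10.4, 16.3 and 16.2 CPM in PX-478, against 20.4, 14.6, 20.8 and 16.4 CPM in saline (log2 fold change -0.33, 95% interval -0.85 to 0.18). Smpd4, a further neutral enzyme, overlapped between the groups, at 41.8 ± 4.48 CPM in PX-478 (SD, n = 3) and 39.0 ± 4.15 CPM in saline (SD, n = 4).

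Smpd3, the neutral sphingomyelinase of the plasma membrane and of exosome release, varied widely among livers, with a coefficient of variation of 57.6% in PX-478 and 69.6% in saline. It had 0.906, 3.71 and 2.87 CPM in PX-478, against 10.0, 3.99, 1.19 and 6.26 CPM in saline. Saline replicate 3 lay within the PX-478 range and the other saline libraries above it (log2 fold change -1.11, SE 0.65, 95% interval -2.53 to 0.31). Without saline replicate 3 the value was -1.44 with an unadjusted p of 0.0140, and without saline replicate 1 it was -0.61 with an unadjusted p of 0.361. Smpdl3a, an acid sphingomyelinase-like phosphodiesterase, had 2.37, 2.27 and 5.48 CPM in PX-478, against 4.75, 2.60, 5.02 and 6.77 CPM in saline. Without PX-478 replicate 3 its log2 fold change was -1.05 with an unadjusted p of 0.0449, beside -0.51 with all libraries. Leaving out each library in turn gave -1.05 to -0.29 for Smpdl3a, and its unadjusted p was under 0.05 in 1 of 18 alternatives. Smpdl3b, its relative, had 7, 12 and 19 reads in PX-478 and 7, 7, 0 and 2 reads in saline, a log2 fold change of 1.58 with a 95% interval from -0.66 to 3.81. Of the 8 genes tested in this step, 3 had a log2 fold change above 0 and 5 below. With scaling by total counts 5 were above 0 and 3 below, with a median of 0.024, beside 0.145 over all genes. Without PX-478 replicate 1 there were 4 above and 4 below.

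All 4 glycosphingolipid genes had log2 fold changes above 0, none past an unadjusted p of 0.05, and without PX-478 replicate 2 or without saline replicate 1 there were 2 above and 2 below, and without saline replicate 2 there were 3 above. Ugcg, the synthase of glucosylceramide, had 16.3, 16.3 and 15.4 CPM in PX-478, against 12.6, 16.7, 7.80 and 13.8 CPM in saline. The PX-478 libraries lay close together near the highest saline library (log2 fold change 0.33, 95% interval -0.22 to 0.88). Gba2, the non-lysosomal glucosylceramidase that reverses this step, had 35.7, 26.9 and 48.2 CPM in PX-478, against 32.4, 32.4, 20.1 and 25.8 CPM in saline (log2 fold change 0.42, 95% interval -0.10 to 0.94). Without PX-478 replicate 2, the lowest of its group, the value of Gba2 was 0.60 with an unadjusted p of 0.0315. Leaving out each library in turn gave 0.18 to 0.60 for Gba2, and its unadjusted p was under 0.05 in 1 of 18 alternatives. The lactosylceramide synthases differed little, with B4galt5 at 49.1 ± 12.4 CPM in PX-478 and 47.8 ± 9.14 CPM in saline, and B4galt6 at 9.40 ± 1.15 CPM in PX-478 and 8.99 ± 2.56 CPM in saline. B4galt5, the highest of this step per length, had 50.2, 60.8 and 36.2 CPM in PX-478, against 37.4, 42.8, 54.6 and 56.3 CPM in saline.

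Carriers and the kinase of ceramide overlapped between the groups as well. Col4a3bp encodes CERT, which carries ceramide to the Golgi for sphingomyelin synthesis. It had 36.9, 30.3 and 36.9 CPM in PX-478, against 24.0, 32.7, 33.2 and 31.9 CPM in saline (log2 fold change 0.19, 95% interval -0.22 to 0.60). Cptp, the carrier of ceramide 1-phosphate, averaged 5.82 ± 2.28 CPM in PX-478 and 5.82 ± 0.822 CPM in saline. Cerk, which makes ceramide 1-phosphate, had 10.1, 12.4 and 7.83 CPM in PX-478, against 11.1, 15.4, 11.5 and 14.0 CPM in saline. For Cerk PX-478 replicate 2 lay within the saline range and the other 2 below it, at a log2 fold change of -0.36 (95% interval -0.89 to 0.17).

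All 4 ceramidase genes had log2 fold changes below 0, with a median of -0.27 and none past an unadjusted p of 0.05. Without saline replicate 3, 1 of the 4 was above 0. With scaling by total counts 2 of the 4 were above 0, and the median of the 4 was -0.096, beside 0.145 over all genes. Acer2, an alkaline ceramidase of the Golgi known as a HIF-2α target in mouse adipocytes, had 12.1, 9.53 and 8.61 CPM in PX-478, against 7.16, 9.89, 15.3 and 11.8 CPM in saline. Every PX-478 library lay within the saline range, at a log2 fold change of -0.13, with a 95% interval from -0.74 to 0.48. Asah1, the lysosomal acid ceramidase, had 5.43, 10.4 and 6.26 CPM in PX-478, against 9.51, 9.71, 12.0 and 7.71 CPM in saline. PX-478 replicates 1 and 3 lay below all saline libraries and replicate 2 among them (log2 fold change -0.40, 95% interval -1.03 to 0.23; without PX-478 replicate 2, -0.73 with an unadjusted p of 0.0330). Over all single libraries left out, the log2 fold change of Asah1 ran from -0.73 to -0.22. Its unadjusted p was under 0.05 in 1 of 18 alternatives, the one without that opposing library. Asah2, the neutral ceramidase, had 3.34, 3.56 and 2.61 CPM in PX-478, against 7.68, 5.03, 3.11 and 3.32 CPM in saline. Acer3 averaged 7.28 ± 0.667 CPM in PX-478 and 8.01 ± 1.75 CPM in saline. Per kilobase Asah1 held the largest share of the 4 in both groups, 49.3% ± 9.72 in PX-478 and 53.5% ± 3.72 in saline.

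Of the 7 S1P genes, 6 had log2 fold changes below 0 and Sphk1 one above. With scaling by total counts 3 of the 7 were below 0, with a median of 0.003, beside 0.145 over all genes. Without PX-478 replicate 2 or saline replicate 1 there were 4 below 0. Sphk1, the cytosolic sphingosine kinase, had 3.76, 4.39 and 1.89 CPM in PX-478, against 2.34, 1.91, 1.26 and 1.63 CPM in saline. As for Sptlc1, PX-478 replicates 1 and 2 exceeded all saline libraries and replicate 3 did not. For Sphk1 the log2 fold change was 0.90, with an SE of 0.46, a 95% interval from -0.09 to 1.89 and an unadjusted p of 0.0708 in edgeR, and without PX-478 replicate 3 it was 1.19 with an unadjusted p of 0.0274. Leaving out each library in turn gave 0.66 to 1.19 for Sphk1, and its unadjusted p was under 0.05 in 1 of 18 alternatives. Sphk2, the nuclear and mitochondrial kinase, was by far the more abundant of the pair, at 93.7% ± 4.05 of their joint level per kilobase in PX-478 and 97.1% ± 0.577 in saline. It had 59.4, 31.5 and 54.5 CPM in PX-478, against 73.3, 63.7, 42.8 and 36.7 CPM in saline (log2 fold change -0.16, 95% interval -0.76 to 0.44). Of the exon bases of Sphk2, 13% overlap the clock output gene Dbp on the opposite strand, which stood at 128 ± 32.3 CPM in PX-478 and 62.3 ± 14.4 CPM in saline, and the part of Dbp in the Sphk2 counts was not tested.

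Sgpl1, Sgpp1 and Spns2, which end or export S1P, overlapped between the groups. Sgpl1, the lyase that degrades S1P irreversibly, had 75.4, 61.1 and 59.8 CPM in PX-478, against 74.0, 73.7, 60.1 and 63.0 CPM in saline, and its log2 fold change of -0.05 had a 95% interval from -0.43 to 0.33. Sgpp1, the S1P phosphatase, had 42.8, 65.4 and 60.7 CPM in PX-478, against 69.9, 56.2, 76.0 and 50.8 CPM in saline. Spns2, an S1P exporter, was the highest of the S1P genes per length. It had 63.3, 38.7 and 59.6 CPM in PX-478, against 81.3, 62.4, 26.2 and 56.1 CPM in saline (log2 fold change -0.07, 95% interval -0.78 to 0.64).

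**Figure D4:**
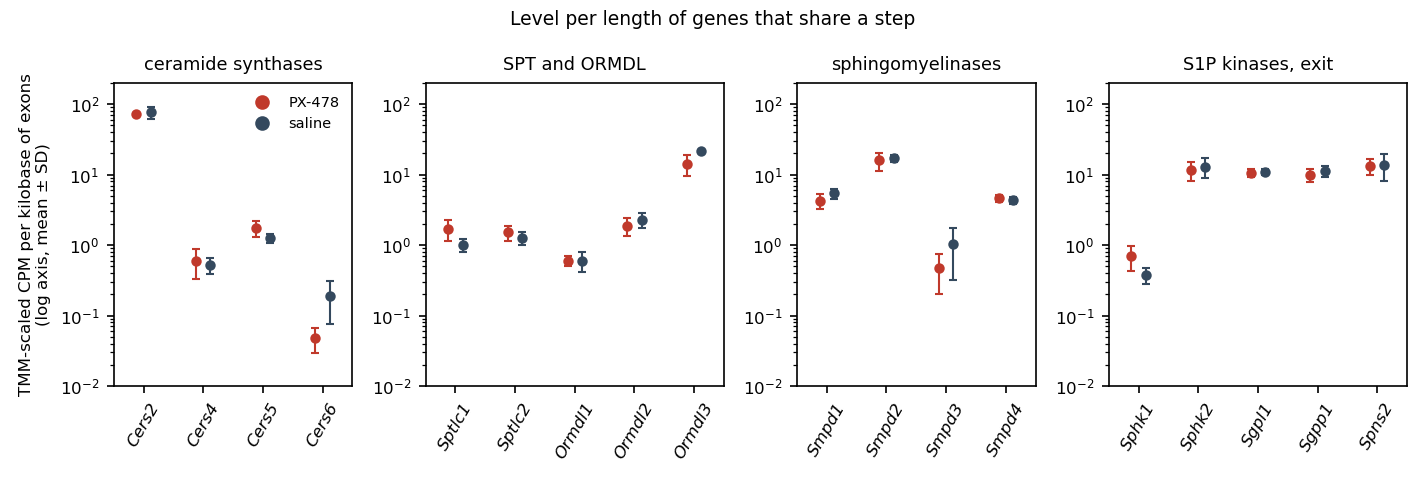
Mean ± SD of the TMM-scaled CPM per kilobase of exons on a log axis, for the ceramide synthases, SPT with the Ormdl genes, the sphingomyelinases, and the S1P kinases with Sgpl1, Sgpp1 and Spns2 (PX-478 left of saline for each gene). Cers2, Ormdl3 and Smpd2 stand above the other genes of their panels, and Sphk2 above Sphk1, in both groups.

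S1P receptors were low in whole liver. S1pr1, the receptor of endothelium and lymphocytes, had 5.29, 8.09 and 8.55 CPM in PX-478, against 10.2, 7.55, 8.59 and 15.7 CPM in saline (log2 fold change -0.53, 95% interval -1.19 to 0.14). In bulk tissue fewer cells of a type and less RNA per cell cannot be told apart. Beside it, 6 of 8 sinusoidal endothelial markers had log2 fold changes above 0, where 49.7% of all genes were. The 3 lymphocyte markers tested had log2 fold changes below 0. Cd3e and Cd79a did not pass the filter on low counts and went opposite ways. Cd3e, a T cell marker, had 11, 9 and 4 reads in PX-478 and 0, 0, 0 and 6 reads in saline. Cd79a had 0, 6 and 0 reads in PX-478 and 8, 18, 13 and 6 reads in saline. The part of these cell types in the values of S1pr1 was not tested. S1pr2 had 2.23, 2.19 and 1.04 CPM in PX-478, against 5.99, 4.68, 0.529 and 2.51 CPM in saline. Saline replicate 3 was the lowest of all libraries for S1pr2 and the other saline libraries lay above PX-478 (log2 fold change -0.91, 95% interval -2.33 to 0.52; without saline replicate 3, -1.27 with an unadjusted p of 0.0197). Over all single libraries left out, the log2 fold change of S1pr2 ran from -1.27 to -0.49. Its unadjusted p was under 0.05 in 1 of 18 alternatives, the one without that opposing library.

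No library stood at the same end for most genes. Saline replicate 3 was the lowest of the 7 libraries for 12 of the 38 genes and PX-478 replicate 1 for 9, while saline replicate 4 was lowest for 0. The highest value lay in saline replicate 1 for 8 genes and in PX-478 replicate 3 for 7. Among saline libraries the coefficient of variation was 4.35% for Ormdl3, the smallest of the 38, and it was largest for Smpdl3b, with 7, 7, 0 and 2 reads. Among PX-478 libraries it was 0.966% for Cers2 and 85.9% for Degs2.

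Genes of the same pathway outside the list were taken from a list of 39, of which 31 were tested. At an unadjusted p under 0.05 there were 3 of 31, or 9.68%, against 6.97% of all genes. All 3 had lower values in PX-478, as 3.48% of all genes did at that threshold, and 0 passed after adjustment in edgeR, in DESeq2 or in limma-voom. All 3 belonged to the 10 genes of lysosomal glycosphingolipid breakdown, of which 9 had log2 fold changes below 0, with a median of -0.31. With scaling by total counts 7 of these 10 were below 0, with a median of -0.178, beside 0.145 over all genes. In that setting 0 of the 31 had an unadjusted p under 0.05. Without PX-478 replicate 2 that count was 5 of the 31. The share of all genes without that library was not counted, so the 5 cannot be read as a trait of these genes. Gla, which removes the terminal galactose of globosides, had 1.60, 2.27 and 1.50 CPM in PX-478, against 5.14, 3.12, 3.97 and 3.57 CPM in saline (log2 fold change -1.14, SE 0.40, adjusted p = 0.602). Hexa, which takes part in ganglioside breakdown, had 29.1, 28.1 and 32.5 CPM in PX-478, against 46.4, 39.9, 46.3 and 39.7 CPM in saline (log2 fold change -0.53, SE 0.18, adjusted p = 0.568). Of the 31 genes, 5 had PX-478 libraries all below the saline libraries, beside 4.29% of all genes, and 0 had them all above. In either direction this was 16.1% of the 31, against 8.59% of all genes. All 5 were among the 10 lysosomal genes, Gla, Hexa, Galc and Psap included. This count was not made with scaling by total counts. Galc, the galactosylceramidase, had 8.36, 6.20 and 8.16 CPM in PX-478, against 8.99, 9.63, 9.06 and 9.02 CPM in saline (log2 fold change -0.28, 95% interval -0.80 to 0.25). Psap, the precursor of the saposins that present lipids to these enzymes, had 182, 168 and 179 CPM in PX-478, against 198, 183, 199 and 191 CPM in saline. Its groups nearly touched, and its log2 fold change was -0.13 (95% interval -0.49 to 0.24). Of the exon bases of Hexa 12.8% overlap Tmem202 on the opposite strand.

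Macrophage markers are given beside these lysosomal genes, and 0 of 11 passed the adjusted threshold in edgeR (smallest adjusted p = 0.179). None of the 11 was at 0 in any library, and their sums overlapped, at 293 to 395 CPM in PX-478 and 316 to 613 CPM in saline. All 11 log2 fold changes were below 0, from -2.12 for Gpnmb to -0.01 for Csf1r, where 49.7% of all genes were above 0. For 4 of the 11, Cd68, Lyz2, Vsig4 and Gpnmb, the PX-478 libraries all lay below the saline libraries, or 36.4%, against 4.29% of all genes, and the other markers overlapped. The same 4 had an unadjusted p under 0.05, a threshold that 3.48% of all genes passed with lower values. Cd68, a lysosomal membrane marker of macrophages, had 12.7, 14.2 and 14.6 CPM in PX-478, against 21.4, 25.3, 28.3 and 29.3 CPM in saline, and Lyz2, their lysozyme, had 24.3, 25.2 and 28.5 CPM in PX-478, against 38.6, 59.5, 57.0 and 71.4 CPM in saline. The Kupffer cell marker Clec4f overlapped, at 81.8 to 141 CPM in PX-478 and 64.3 to 166 CPM in saline. The part of macrophage RNA in the values of Gla, Hexa, Smpd1 and Asah1 was not tested.

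**Figure D5:**
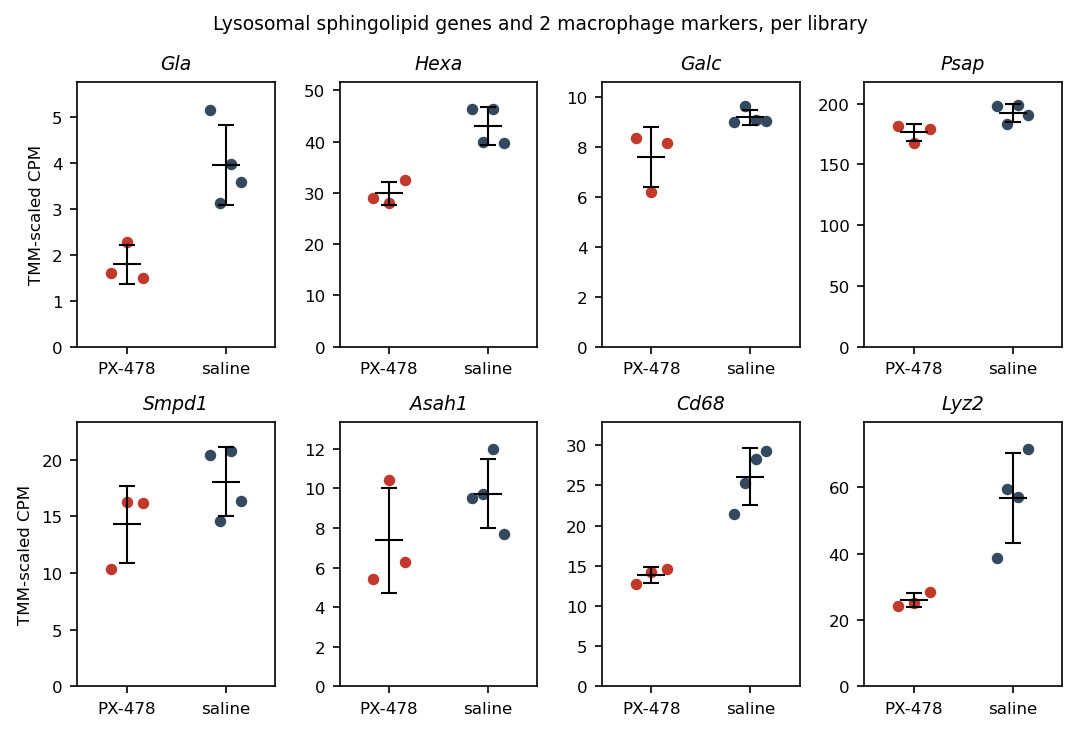
TMM-scaled CPM of lysosomal sphingolipid genes and of the macrophage markers Cd68 and Lyz2 in each library (points; PX-478 left, saline right), with mean ± SD (bars). The PX-478 points lie below all saline points for Gla, Hexa, Galc, Psap, Cd68 and Lyz2, and overlap them for Smpd1 and Asah1.

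The rest of that wider list had no gene at an unadjusted p under 0.05. Small subunits and further synthases had log2 fold changes above 0 for 3 of 4 genes, ganglioside and sulfatide synthesis and transfer for 5 of 8, and further ceramidase and S1P genes for 5 of 9. St3gal5, the synthase of GM3 ganglioside, stood at 78.2 ± 10.5 CPM in PX-478 and 60.1 ± 22.6 CPM in saline, and Sptssa, a small activating subunit of SPT, at 15.0 ± 2.11 CPM in PX-478 and 16.4 ± 4.63 CPM in saline. Apom, whose product carries S1P on high-density lipoprotein, stood at 19.1 ± 1.62 CPM in PX-478 and 16.4 ± 5.32 CPM in saline. Neu3, a plasma membrane sialidase known as a HIF-2α target in mouse intestine, had 1.04, 0.303 and 1.57 CPM in PX-478, against 0.326, 2.17, 0.529 and 1.50 CPM in saline.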

How the data were processed

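Liver mRNA of 3 PX-478 and 4 saline mice was measured by sequencing, and groups and replicate numbers come from the sample titles. The authors deposited raw counts of reads, with an Entrez ID for each gene, in 2 columns per sample. Per the submitters' processing notes the tools include featureCounts and edgeR and the build is mm10, and the aligner and strand setting are not given in the sources used here. Between the columns of a sample the chi-square per gene was 0.291 to 0.765, against 49.1 to 145 between libraries of a group. So both columns, which differ by less than sampling noise, were averaged, rounded and taken as 1 sample.

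Genes were filtered with filterByExpr, scaled by TMM and tested with edgeR 4.0.16 (quasi-likelihood, robust, no covariates) in R 4.3.3, with Benjamini-Hochberg adjustment over 13693 genes at 0.05. An SE is the size of the log2 fold change divided by the root of the F statistic. Limma 3.58.1 and DESeq2 1.42.0 were alternatives, and the test was tried on simulated data. Intervals are at 95%, and floors of 3 reads cover counting error only. No label says how animals were housed or handled, so the p-values cover only the spread among these libraries, which may be technical. Exon lengths and overlaps are from GENCODE M21 (GRCm38) and positions from RefSeq GRCm38.p6. Motifs were searched in the 250 bases upstream of each RefSeq start. Members and lists were chosen with earlier results of these data known. Values in every library are printed for genes at an unadjusted p under 0.05, genes without overlap, the highest of each step per length and the Ormdl genes, and for further genes chosen after their values were seen. Values of a few genes of the wider list are not reported here.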

Additional observations from a re-analysis of the deposited data

Results flagged for a closer look

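Among the 4 saline libraries, a single library stood apart from the others in 4 of the 69 sphingolipid genes examined in this way, where chance gives about 1 in 20. Cers5 was at 3.44 CPM in saline replicate 3, against 4.69 to 4.89 CPM in the other saline libraries. Col4a3bp was at 24.0 CPM in saline replicate 1, against 31.9 to 33.2 CPM in the others. Galc was at 9.63 CPM in saline replicate 2, against 8.99 to 9.06 CPM, and S1pr5, a receptor for S1P, was at 4.39 CPM in saline replicate 4, against 2.51 to 2.69 CPM. For S1pr5 the highest value of all libraries was 9.92 CPM, in PX-478 replicate 3.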

How the results depend on the processing

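None of the 38 genes passed the adjusted threshold under any of 18 alternatives, and their lowest adjusted p was 0.293, for Ormdl3 without PX-478 replicate 2. Of 676 values, 45 had another sign than the main one, in 16 genes that all lay within 1 SE of 0. With scaling by total counts, 25 genes lay above 0 and 13 below, beside 15 and 23, with a median of 0.06, while the median of all genes was 0.145. Over all genes edgeR called 1, against 5 with total counts, 82 in DESeq2 and 0 in limma-voom. Limma-voom gave 1 of the 38 an unadjusted p under 0.05, and total counts gave 0 of the 31 further genes one. The labels do not pair the libraries: same-numbered ones correlated at -0.02, -0.07 and -0.00 in their deviations. A replicate block, which leaves saline replicate 4 without weight, gave 3 calls over all genes, 1 of the 38 at the unadjusted threshold and 5 of the 31. With single libraries left out, calls over all genes ran from 1 to 5, the 38 gave 0 to 5 at the unadjusted threshold and 1 to 6 without overlap, and the 31 gave 2 to 5. Shares of all genes at the unadjusted threshold and without overlap were not counted in those settings. Depth limits Cers6, Degs2 and Smpdl3b, with under 40 reads in every library.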
